A study of Mus musculus with 8 samples.

Results

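The genes described here are 10 genes of the oxygen-sensing pathway, 10 of the 53801 genes in the deposited table. They were chosen by name as the HIF alpha subunits Hif1a and Epas1, the HIF prolyl hydroxylases Egln1 and Egln3, and 6 HIF target genes outside glycolysis, namely Car9, Bnip3, Ndrg1, Adm, Ankrd37 and Ddit4. All 10 had reads and received an adjusted p-value. Levels came from 8 RNA-seq libraries, 4 from GFP+ and 4 from GFP- stromal cells. Both kinds of cell were PDPN+PDGFRα+CD45-CD31- cells sorted at day 8 from MO5 tumors, a subcutaneous melanoma made with B16 cells that carry the ovalbumin gene. The hosts were ADAM12-GFP mice, 8 to 12 weeks old on the C57Bl/6 background, in which an Adam12 bacterial artificial chromosome transgene (Cre-Ires-GFP) marks cells with GFP. GFP+ and GFP- cells therefore carried the same transgene, and GFP reports activity of the Adam12 transgene at the time of sorting. The study counts mice as replicates unless stated otherwise, but the labels tie no library to an animal, so the p-values measure the spread between these libraries, which may be partly technical.

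HIF is a transcription factor made of an oxygen-sensitive alpha subunit, HIF-1α or HIF-2α, and the stable partner ARNT. When oxygen is present, prolyl hydroxylases of the EGLN (PHD) family hydroxylate the alpha subunit, VHL binds it, and the proteasome destroys it. When oxygen falls, the alpha subunit accumulates and HIF binds DNA at a short core, ACGTG or GCGTG, near its target genes. The control acts mainly on the protein, so an RNA level of Hif1a or Epas1 is no measure of HIF activity. Several targets, Egln3 among them, feed back on the pathway, and in solid tumors Car9 and Adm are widely used as hypoxia markers.

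The HIF core was looked for, as the letters ACGTG or GCGTG on either strand, in the 250 bases before the RefSeq start of each gene. Promoters of 8 of the 10 genes were in the RefSeq table, and Epas1 and Ndrg1 were not matched. ACGTG was present in 7 of these 8, against 16.6% of all 32851 promoters in the table, and GCGTG in 5, against 28.2%. A match is a description of the letters and was not tested for binding. The stretches below show where the core stands in the genes whose levels are given next, one stretch a gene and both GCGTG stretches for Adm, the one gene without ACGTG. They are written 5′ to 3′ on the strand of the gene, with the core or its reverse complement in capitals.

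Hif1a: cacacagacaagCACGTGagcggggcagct
Egln1: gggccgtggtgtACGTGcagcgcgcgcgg
Egln3: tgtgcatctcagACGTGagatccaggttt
Car9: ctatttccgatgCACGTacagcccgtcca
Bnip3: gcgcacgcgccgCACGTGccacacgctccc
Ankrd37: cccagcagtACGTGcctagctcggct
Ddit4: agaacgttgcgaACGTGcgcccggtgcct
Adm, farther from the start: tttagaagcaagCACGCtggagagggagg
Adm, nearer to the start: ggcaaatctgacCACGCccaccgtccgcc

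On GRCm38.p6 these stretches lie at chr12:73907720-73907749 for Hif1a (plus strand), chr8:124949306-124949334 for Egln1 (minus strand), chr12:54204087-54204115 for Egln3 (minus strand) and chr4:43506996-43507024 for Car9 (plus strand). The others lie at chr7:138909597-138909626 for Bnip3, chr8:46000075-46000100 for Ankrd37 and chr10:59951941-59951969 for Ddit4, all on the minus strand, and at chr7:110627555-110627583 and chr7:110627591-110627619 for Adm on the plus strand. In Hif1a and Bnip3 the capitals are the palindrome CACGTG, which carries ACGTG on both strands. The core of Car9 stands 18 bases before the RefSeq start, yet its stretch lies wholly within an exon of the GENCODE gene model, as do 19 of the 29 bases of the Egln1 stretch. The remaining stretches shown lie outside the GENCODE exons of their gene. Hif1a and Ankrd37 each hold 2 ACGTG places, and the place farther from the start is shown. The Ankrd37 place left out stands 6 bases before the start, and 17 of the 18 bases of its stretch lie in a GENCODE exon.

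The libraries differed in depth and in how many genes that depth covered. Total counts were 883144 to 17535099 in GFP- and 8776925 to 31666734 in GFP+, with GFP- replicate 3 the shallowest by far, so that 3 reads in it stand for 32.96 normalised counts. GFP- replicate 1 and GFP+ replicate 1 held fewer genes than their depth would give in the others. With every library thinned to 883144 counts they had reads for 12970 and 12738 genes, against 14144 to 15414 in the other 6, and 18.6% and 20% of the 5198 tested genes with a mean normalised count from 10 to 100 were at 0 in them. Adam12, the check of the sort, was higher in GFP+ (1362 ± 357 normalised counts in GFP- against 2302 ± 484 in GFP+, SD, n = 4 each, DESeq2 adjusted p = 0.0266), a call kept in 4 of 8 fits without 1 library, with adjusted p-values up to 0.117, and lost in edgeR with a filter on low counts (adjusted p = 0.0643). Melanocyte genes were read in both groups and fell in GFP+, with 13 of 13 tested markers called lower and summed levels of 27172 to 78958 in GFP- against 4653 to 12536 in GFP+, while Mc1r was at 0 in all libraries. Schwann cell markers also fell (4 of 5 tested), and stromal markers rose (6 of 8 tested, summed levels of 253552 to 559288 in GFP- against 666226 to 764372 in GFP+). Summed leukocyte (855 to 5549 and 962 to 4335), pericyte (540.3 to 1121 and 698 to 1438) and keratinocyte markers (33.0 to 213 and 35.2 to 77.6) overlapped between GFP- and GFP+. Of 7 tested pericyte markers, however, 1 was called higher and 1 lower by DESeq2 and by edgeR, and edgeR called 1 keratinocyte marker lower. In bulk libraries, fewer cells of a type and less RNA per cell cannot be told apart.

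Across the 10 genes, Epas1 and Adm rose in GFP+ cells and no gene was called lower. DESeq2 called 9.42% of the 15283 genes tested at an adjusted p under 0.05, 4.66% higher and 4.76% lower. The median log2 fold change of the 10 genes was -0.34, with 3 above 0 and 7 below, against a median of -0.01 over all genes tested. No sample overlapped between groups for Epas1 and Adm, both higher in GFP+, and for Egln1, lower in GFP+. Over all tested genes 12.3% did not overlap, 6.37% in the higher and 5.95% in the lower direction. Below an unadjusted p of 0.05 there were 5 of the 10 genes in DESeq2, 3 of them lower, and 6 in edgeR's quasi-likelihood test, again 3 of them lower. Over all genes tested by DESeq2, 21% were under that unadjusted p, 10.8% in the lower direction, and by edgeR 14.8% were, 7.5% in the lower direction. After adjustment edgeR also called 2 higher and 0 lower of the 10 genes, and it called 4.37% of 29043 genes tested, 2.2% higher and 2.17% lower.

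**Figure D1:**
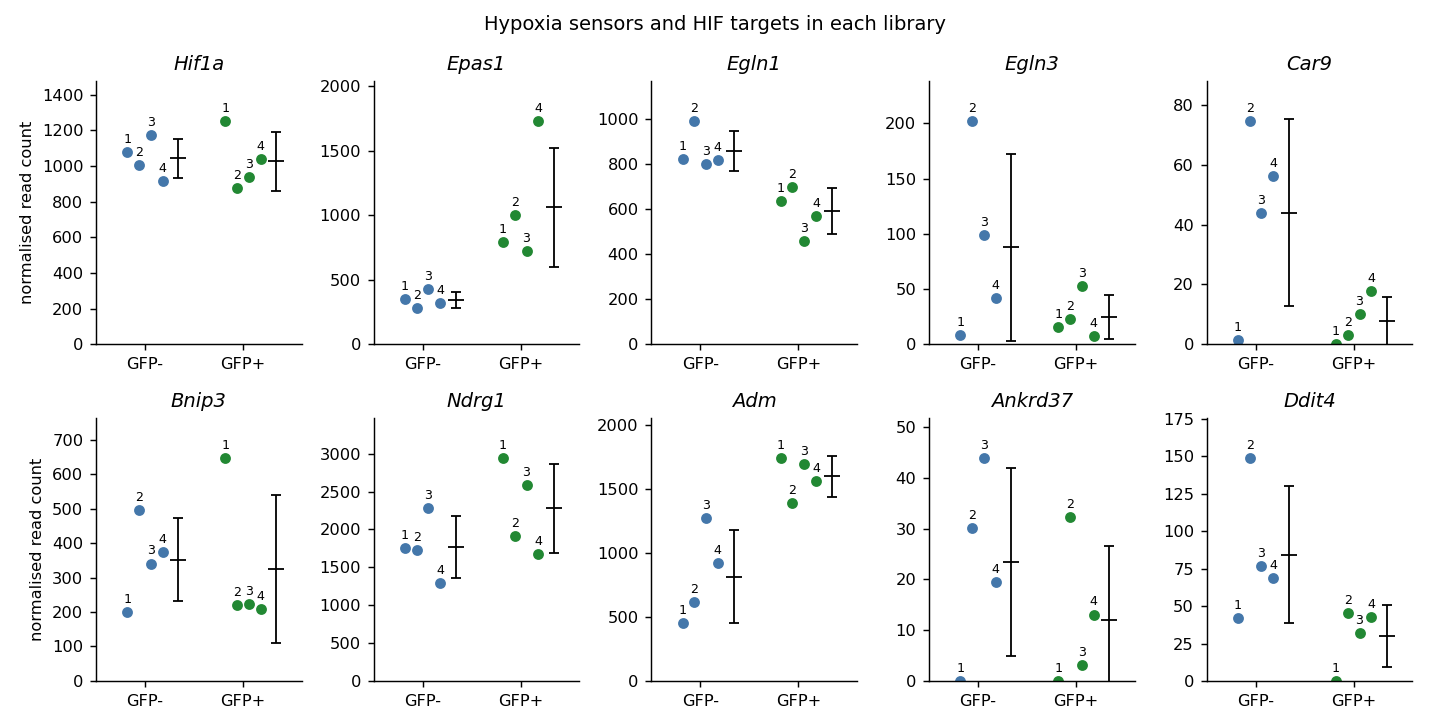
Normalised read counts of each gene (linear axis from 0) in the 4 GFP- and 4 GFP+ libraries, with the replicate number above each point and the group mean ± SD beside the points, drawn down to 0 where the SD passes it. Epas1 and Adm are higher in every GFP+ library than in any GFP- library and Egln1 is lower, while GFP- replicate 1 is the lowest GFP- library for 6 of the 10 genes.

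Hif1a, which encodes HIF-1α, was read at 1079, 1005, 1176 and 917 normalised counts in GFP- replicates 1 to 4. Its levels in GFP+ were 1251, 874, 939.6 and 1040 normalised counts in the same order. The groups overlapped throughout, and the lowest and the highest library were both GFP+. The log2 fold change was -0.01 ± 0.18 (SE, DESeq2 adjusted p = 0.981), with a 95% interval of -0.36 to 0.34. An antisense gene and a second coding model overlap 330 and 148 bases of its exons, with at most 243 reads in a library for either.

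Epas1, which encodes HIF-2α and is best known from endothelial cells, showed the clearest difference. GFP- libraries held 353, 282, 428.5 and 319 normalised counts, a narrow range. GFP+ libraries held 789, 998, 726 and 1729. Every GFP+ library was above every GFP- library, and GFP+ replicate 4 was the highest. The rise was 3.12-fold, a log2 fold change of 1.64 ± 0.30 (DESeq2 adjusted p = 4.62e-06), and it was called in 8 of 8 fits that left out 1 library. Summed endothelial markers overlapped between the groups, at 1859 to 3054 normalised counts in GFP- and 2129 to 3742 in GFP+. Of the 8 tested endothelial markers DESeq2 called 0 higher, with 1 at an unadjusted p under 0.05, and Vwf lower. The 1 at an unadjusted p was Kdr, with a mean of 505 normalised counts in GFP- and 1103 in GFP+ (DESeq2 adjusted p = 0.107), which edgeR did call higher (adjusted p = 1.60e-04). The part of endothelial RNA in the rise of Epas1 was not tested.

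The balance of both alpha subunits differed with it. Epas1 per length stood at 0.345, 0.296, 0.384 and 0.367 of Hif1a in the GFP- libraries. The same ratio was 0.665, 1.20, 0.815 and 1.75 in the GFP+ libraries. Epas1 RNA was thus below Hif1a RNA in all GFP- libraries and above it in GFP+ replicates 2 and 4.

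Egln1 encodes PHD2, the main hydroxylase that sets HIF-1α levels in normal oxygen. It was read at 825, 992, 802 and 820.5 normalised counts in GFP- cells. In GFP+ cells the levels were 636, 699.95, 458 and 571. The groups did not overlap, and GFP- replicate 2 stood above its group. The log2 fold change of -0.55 ± 0.19 had a DESeq2 adjusted p = 0.0521, and edgeR gave 0.185, so the difference was not called. Leaving out GFP- replicate 3 or GFP+ replicate 2 brought the DESeq2 adjusted p to 0.0490 and 0.0375. These were the only 2 of 8 fits without 1 library that called it, and the DESeq2 adjusted p rose to 0.224 without GFP- replicate 2.

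Egln3 encodes PHD3, a hydroxylase that is itself a strongly hypoxia-induced HIF target. GFP- libraries ranged widely, at 8.14, 202, 98.9 and 41.5 normalised counts. GFP+ libraries held 15.3, 22.6, 53.0 and 7.38. GFP- replicate 1, with 6 reads, lay among the GFP+ libraries, and GFP- replicates 2 and 3 lay above all of them. The log2 fold change of -1.83 ± 0.86 was not called (DESeq2 adjusted p = 0.183), became -2.23 with an adjusted p = 0.0364 without GFP- replicate 1, and shrank to -0.89 without GFP- replicate 2 and to -1.19 with all libraries thinned. Relative to Egln1 per length, Egln3 spanned 0.0133 to 0.275 in GFP- and 0.0174 to 0.156 in GFP+, ranges that overlap.

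Car9 encodes carbonic anhydrase IX, a cell-surface enzyme that handles acid in hypoxic cells. Reads were 1, 104, 4 and 107 in the GFP- libraries, or 1.36, 74.5, 43.9 and 56.2 normalised counts. In GFP+ there were 0, 7, 13 and 53 reads, or 0, 2.93, 9.99 and 17.8 normalised counts. GFP- replicates 2 to 4 were above every GFP+ library, and GFP- replicate 1 was below 3 of them. In GFP+ replicate 1 the absence of reads allows up to 4.17 normalised counts (3 reads, counting error only). DESeq2 estimated a log2 fold change of -2.49 ± 1.13 (adjusted p = 0.163), which moved to -2.90 (adjusted p = 0.0254) once GFP- replicate 1 was left out. This was the only 1 of 8 DESeq2 fits without 1 library that called Car9, and the adjusted p was 0.438 without GFP- replicate 2. With all libraries thinned to 883144 counts the log2 fold change was -1.45. Melanocyte markers were higher in GFP- as well, at the summed levels given above, and their part in the difference of Car9 was not tested.

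Bnip3 encodes a mitochondrial protein of the BCL-2 family that marks mitochondria for removal. Its GFP- levels were 199, 494, 341 and 374 normalised counts. Its GFP+ levels were 647, 220.5, 224 and 209. GFP+ replicate 1 was the highest of the 8 libraries, the other GFP+ libraries lay within 209 to 224, and GFP- replicate 1 was the lowest. With all libraries the log2 fold change was -0.12 ± 0.43 (DESeq2 adjusted p = 0.926), and without GFP+ replicate 1 it was -0.69.

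Adm encodes adrenomedullin, a secreted peptide that dilates vessels and acts on endothelial cells. GFP- libraries held 454, 618, 1275 and 919 normalised counts. GFP+ libraries held 1744, 1391, 1696 and 1567. All GFP+ libraries were higher, with little spread among them (SD 158), while the GFP- libraries differed more (SD 361). The rise was 2.00-fold, a log2 fold change of 1.00 ± 0.29 (DESeq2 adjusted p = 0.0104, edgeR adjusted p = 1.46e-04). It was called in 6 of 8 fits without 1 library, and the DESeq2 adjusted p was 0.0626 without GFP- replicate 2 and 0.0505 without GFP+ replicate 3. Stromal markers moved the same way as Epas1 and Adm, at the summed levels given above, and their part in these rises was not tested. The gap between GFP- replicate 3 and the lowest GFP+ library rested on 116 reads in GFP- replicate 3.

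Ndrg1 encodes a cytoplasmic stress- and differentiation-linked protein. It had 1757, 1726, 2285 and 1291 normalised counts in GFP- and 2944, 1914, 2591 and 1678 in GFP+. The groups overlapped, with GFP+ replicate 4 below 3 of the 4 GFP- libraries. Its log2 fold change of 0.38 ± 0.24 was not called (DESeq2 adjusted p = 0.386) and stayed above 0 in all 8 fits without 1 library.

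Ddit4 encodes REDD1, which restrains mTORC1 under hypoxia and other stress. The GFP- libraries had 42.1, 149, 76.9 and 68.8 normalised counts. The GFP+ libraries had 0, 45.2, 32.3 and 42.9. GFP- replicates 2 to 4 were above every GFP+ library, and GFP- replicate 1 fell just below GFP+ replicates 2 and 4. This difference, -1.47 ± 0.82 on the log2 scale, was not called (DESeq2 adjusted p = 0.295), and GFP+ replicate 1 at 0 reads allows up to 4.17 normalised counts.

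Ankrd37 encodes a small ankyrin-repeat protein and was the gene with the lowest mean count. It had 0, 42, 4 and 37 reads in GFP- and 0, 77, 4 and 39 in GFP+. In normalised counts these were 0, 30.1, 43.9 and 19.4 against 0, 32.2, 3.07 and 13.1, and the groups overlapped. The log2 fold change of -0.86 ± 1.34 had a DESeq2 adjusted p = 0.799, and it moved to -2.0 without GFP+ replicate 2 and to -0.42 without GFP+ replicate 1. Its exons overlap those of Ufsp2 by 57 bases and of Lrp2bp by 349 bases, both on the opposite strand.

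**Figure D2:**
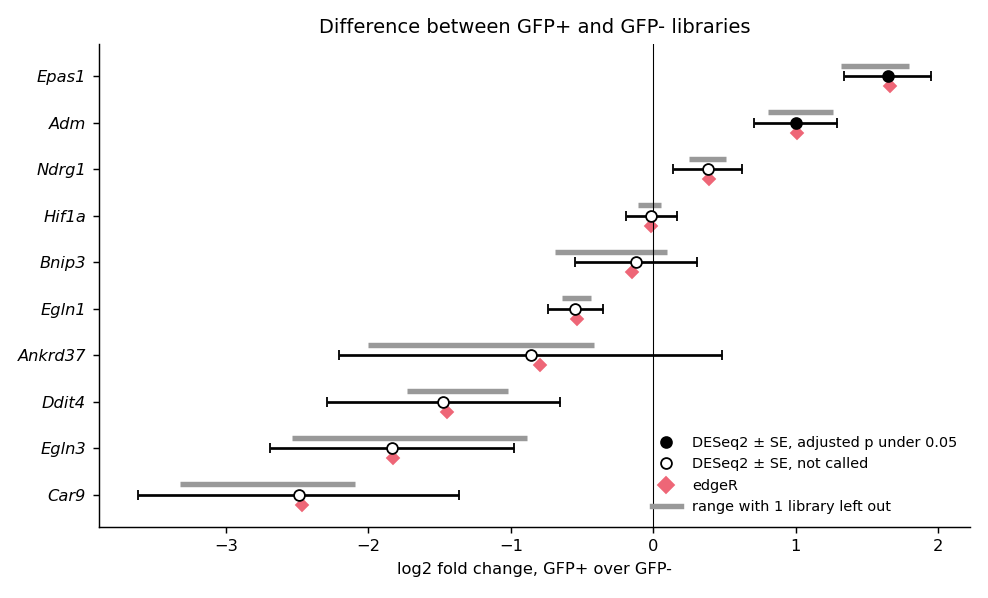
Log2 fold change of GFP+ over GFP- for each gene from DESeq2 with its standard error (circles, filled where the adjusted p was under 0.05), from edgeR (diamonds), and the range over fits that each left out 1 library (grey bars). Epas1 at 1.64 and Adm at 1.00 are the called genes, and the standard errors of Egln3, Car9, Ankrd37 and Ddit4 all exceed 0.8.

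Several of the genes were lowest or highest in the same library. GFP- replicate 1 was the lowest GFP- library for Egln3, Car9, Bnip3, Adm, Ankrd37 and Ddit4 and the highest for none of the 10 genes. GFP- replicate 2 was the highest GFP- library for Egln1, Egln3, Car9, Bnip3 and Ddit4. GFP+ replicate 1 was the lowest GFP+ library for Car9, Ankrd37 and Ddit4, all at 0 reads, and the highest for Hif1a, Bnip3, Ndrg1 and Adm. Since both libraries numbered 1 also had the fewest genes at equal depth, the comparison was repeated with 3 libraries a group, a choice made after these values were seen. Without them Egln3, Car9 and Bnip3 were called lower in GFP+, with log2 fold changes of -2.06, -2.54 and -0.91 (DESeq2 adjusted p = 0.0360, 0.00992 and 0.0141). edgeR called the same 3 genes lower, with adjusted p-values of 0.00169, 0.0122 and 0.0136. Omitting GFP- replicate 1, the lowest GFP- library for these 3 genes, raised their GFP- means. Omitting GFP+ replicate 1 lowered the GFP+ mean of Bnip3 but raised those of Egln3 and Car9. The choice of libraries thus favoured part of these falls, so the calls are a description and no independent support. In these fits 4.25% of 14688 genes tested by DESeq2 and 2.58% of 28570 by edgeR were called lower, and 3.68% and 2.66% higher. Epas1 and Adm were again called higher, at log2 fold changes of 1.80 and 0.78 (DESeq2 adjusted p = 5.73e-07 and 0.0280). Egln1 had an adjusted p = 0.105 in this DESeq2 fit and Ddit4 0.0727, neither called. Melanocyte sums also differed among these 6 libraries, at 27172 to 78958 in GFP- and 4772 to 12536 in GFP+, and their part in the differences of Egln3, Car9 and Bnip3 was not tested. Whether the low values in the libraries numbered 1 came from the cells or from the coverage of those libraries was not tested either.

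Levels per length put the 10 genes in order. In reads per kilobase of exon, scaled to the counted total of each library (RPKM), Adm was highest in both groups (51.6 ± 24.6 in GFP- and 88.3 ± 4.54 in GFP+, SD, n = 4), followed by Ndrg1 (26.9 ± 6.18 and 30.7 ± 5.89). In GFP- the order went on with Egln1 (24.1 ± 2.44), Hif1a (17.8 ± 1.81), Bnip3 (15.8 ± 5.6) and Epas1 (6.25 ± 1.22). In GFP+ it went on with Epas1 (17.3 ± 8.31), Hif1a (15.5 ± 1.75), Egln1 (14.8 ± 3.02) and Bnip3 (12.5 ± 7.29). On this scale Epas1 ranked 6 of the 10 genes in GFP- and 3 in GFP+, where its range overlapped those of its neighbours Ndrg1 and Hif1a. Ddit4, Egln3, Ankrd37 and Car9 were lowest in both groups, with means per length of 1.56 to 4.84 in GFP- and 0.307 to 1.59 in GFP+. Neighbours in the GFP- order had overlapping ranges over libraries except Egln1 above Hif1a and Bnip3 above Epas1. In GFP+ the exceptions were Adm above Ndrg1 and Bnip3 above Ddit4.

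**Figure D3:**
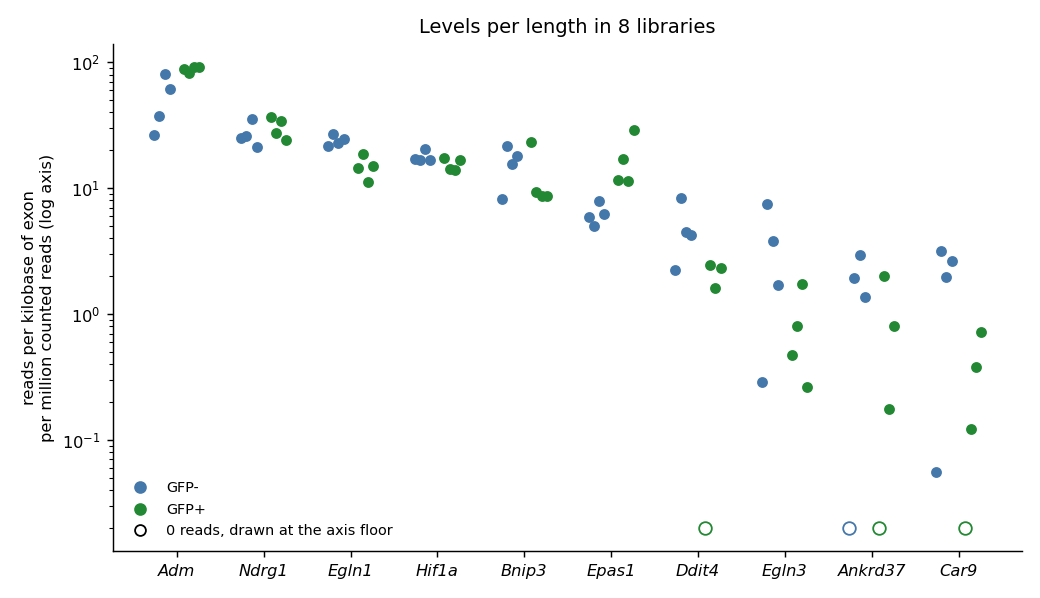
RPKM (log axis) of each gene in each GFP- (blue) and GFP+ (green) library, with libraries at 0 reads as open circles at the axis floor. Adm lies above 80 in all GFP+ libraries, and the points of Ddit4, Egln3, Ankrd37 and Car9 lie below 10 in all libraries.

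Of 16 tested HIF partners and regulators, a list that holds Arnt, Vhl, Egln2 and Hif1an, 0 were called in either direction by DESeq2 or by edgeR, with 2 of the 16 at an unadjusted p under 0.05, and the median log2 fold change was -0.13. Without GFP- replicate 3 DESeq2 called 1 of this list higher and 1 lower, and limma voom with all libraries called 1 lower. Among the 4 tested receptor genes for adrenomedullin and the 3 genes of the NDRG family besides Ndrg1 there were likewise 0 calls by DESeq2 and by edgeR, with 1 gene of both lists at an unadjusted p under 0.05 in DESeq2 and 4 in edgeR. DESeq2 called 1 receptor gene higher without GFP- replicate 3 or GFP+ replicate 4 and 1 lower without GFP+ replicate 3, and edgeR without both libraries numbered 1 called 1 NDRG gene higher.

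Other HIF targets outside glycolysis moved in both directions. Of 40 tested, 4 (10%) were called higher and 6 (15%) lower, with a median log2 fold change of 0.18. The count called higher ranged from 2 to 6 without 1 library (2 when GFP- replicate 4 or either of GFP+ replicates 1 and 3 was omitted) and was 7 in DESeq2 and 8 in edgeR under a replicate block. Ppp1r3c, a glycogen-targeting subunit of protein phosphatase 1, rose most (log2 fold change 3.45 ± 1.07), from a mean of 3.69 to 51.0 normalised counts, although edgeR did not call it (adjusted p = 0.0778). Vldlr, a lipoprotein receptor, rose by 1.06 ± 0.29, Lox, which cross-links collagen, by 0.95 ± 0.27, and the angiogenic factor Vegfa by 0.57 ± 0.19, all on the log2 scale. Bhlhe41, a transcriptional repressor, fell by 2.64 ± 0.43 on the log2 scale. On the same scale the cytokine Mif fell by 1.73 ± 0.23, the transferrin receptor Tfrc fell by 1.58 ± 0.33 and the vasoconstrictor Edn1 fell by 1.39 ± 0.34. Vegfa was called in only 3 of 8 fits without 1 library. Melanocyte markers fell and stromal markers rose at the same time, at the summed levels given above, and their part in these changes was not tested.

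Glycolytic HIF targets were called in the lower direction. Of 20 tested, 12 (60%) were called lower and 0 higher by DESeq2 and by edgeR, each with 1 higher at an unadjusted p under 0.05, with a median log2 fold change of -0.90. In 7 of 21 alternative settings, among them DESeq2 without GFP- replicate 3 and both fits with a replicate block, 1 gene of this list was called higher. Aldoc fell by 3.75 ± 0.71 on the log2 scale, Gapdh fell by 2.06 ± 0.68, Tpi1 fell by 1.88 ± 0.27 and Eno1 fell by 1.74 ± 0.26. Gapdh was called in only 3 of 8 fits without 1 library. Its GFP- libraries spanned 50.2 to 1066 normalised counts, a range that held all GFP+ libraries (68.4 to 134.7). The difference between this list and the others was not tested. Melanocyte markers moved the same way as the glycolytic list, at summed levels given above, and their part in these differences was not tested.

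**Figure D4:**
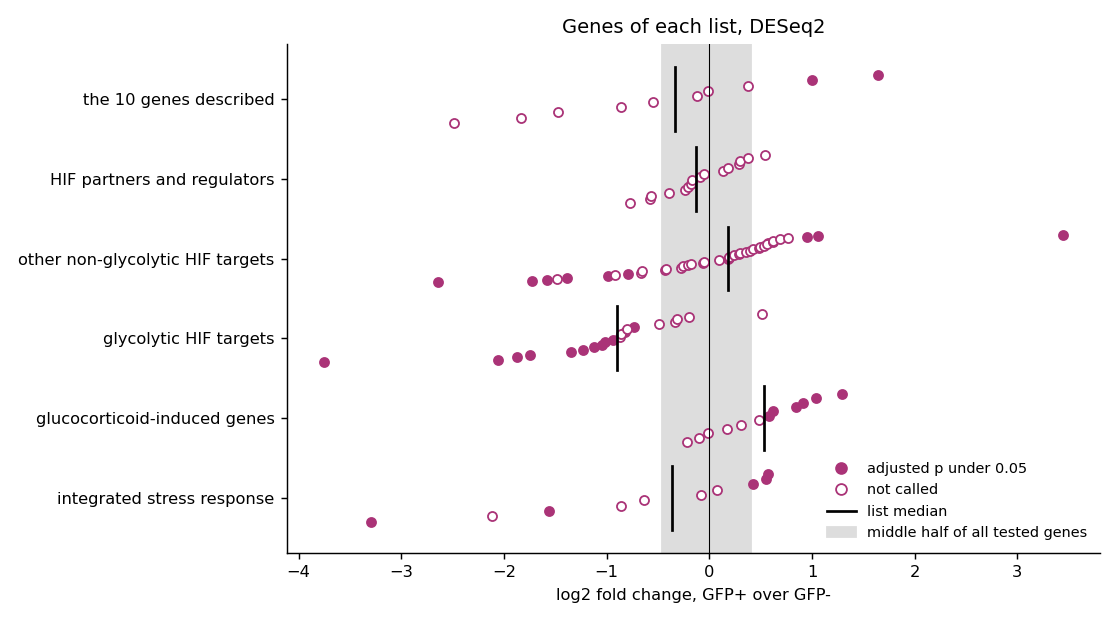
Log2 fold change of GFP+ over GFP- (DESeq2) for every tested gene of the 10 genes described and of 5 other lists, filled where the adjusted p was under 0.05, with a bar at each list median and grey shading from the lower to the upper quartile of all tested genes (-0.47 to 0.41). The glycolytic list has its median at -0.90 with 12 filled points below 0, and the 10 genes have 2 filled points above 0.

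Besides Car9, 11 carbonic anhydrases were tested and DESeq2 called 3 lower, Car6 (log2 fold change -3.50 ± 0.95), Car14 (-3.02 ± 0.70) and Car8 (-0.88 ± 0.28), with 0 higher and 1 higher at an unadjusted p under 0.05. Car8 was called in 3 of 8 fits without 1 library. edgeR called 4 lower, these 3 and Car4 (-3.22 ± 1.72 in DESeq2 with adjusted p = 0.268, edgeR adjusted p = 5.66e-13), and 0 higher. Melanocyte markers moved the same way, with a median log2 fold change of -3.13 over 13 tested, and their part in these falls was not tested. Around Ddit4, 1 of 9 tested mTORC1 brakes and stress sensors was called, Trib3, at a log2 fold change of -2.79 ± 0.74, a call lost without GFP- replicate 4, with limma voom, after thinning and in edgeR with a filter on low counts. Of 10 genes of the integrated stress response, another inducer of Ddit4, Vegfa, Ppp1r15a and Atf3 were called higher and Chac1 and Ddit3 lower by DESeq2. The count called higher fell to 0 when GFP- replicate 2 or either of GFP+ replicates 1 and 3 was omitted, and the count called lower fell to 0 when GFP- replicate 4 was. Of these 5 genes edgeR called Vegfa, Ppp1r15a and Ddit3, and DESeq2 without both libraries numbered 1 called 0 of the 10, with 6 at an unadjusted p under 0.05, while edgeR without them called 2. Ddit4 is also glucocorticoid-induced, and of 12 such genes 6 were called higher and 0 lower by DESeq2 and by edgeR, with 0 lower at an unadjusted p under 0.05 as well, led by Sgk1 (1.29 ± 0.33), Klf9 (1.04 ± 0.21), Mt2 (0.91 ± 0.29) and Zbtb16 (0.84 ± 0.26), while Ddit4 itself had a log2 fold change of -1.47 and was not called. Stromal markers rose as well, and their part in the rise of these genes was not tested. Mt2 and Zbtb16 were called in 3 and 2 of 8 fits without 1 library, and the list's count fell to 3 when GFP- replicate 2 or 4 or GFP+ replicate 3 was omitted. Of 8 mitophagy genes related to Bnip3, Fundc1 was called lower (log2 fold change -0.87 ± 0.31, adjusted p = 0.0488), a call kept in 2 of 8 fits without 1 library, and edgeR did not call it (adjusted p = 0.139).

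The genes whose levels followed a gene most closely over the 8 libraries were found for the 6 of the 10 genes with a mean of at least 100 normalised counts, which leaves out Egln3, Car9, Ankrd37 and Ddit4. They were found by Pearson's r of log2(normalised count + 1), among 8795 genes above the same mean. The 8 libraries share group and depth differences, so these values are a description. Epas1 was followed by Egr2, an immediate-early transcription factor (r = 0.973), Lpl, lipoprotein lipase (r = 0.965), and the growth factor Igf1 (r = 0.960). Those 3 genes were themselves called higher in GFP+. Adm was followed by Irf7 (r = 0.990), Mafk (r = 0.988) and Kctd12 (r = 0.984), also called higher. Egln1 had Dnmt1 (r = 0.961), Dcakd (r = 0.956) and Psmd7 (r = 0.936) nearest to it, of which Psmd7 was called lower. Hif1a had Smdt1 (r = 0.951), Lims2 (r = 0.945) and Cd44 (r = 0.929). Bnip3 had Noa1 (r = 0.968), Sec24c (r = 0.958) and Abhd12 (r = 0.954), and Ndrg1 had Irak3 (r = 0.968), Ier3 (r = 0.967) and Plagl1 (r = 0.958). None of the 6 genes nearest to Bnip3 and Ndrg1 was called.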

How the data were processed

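RNA-seq libraries were made from total RNA with a strand-keeping SMARTer Pico kit and sequenced on a NextSeq. The authors trimmed reads with cutadapt 3.4, aligned them to GRCm38 with STAR 2.7.3a and counted them by strand with featureCounts 2.0.1 on Ensembl annotation release 92, which gave the deposited raw count of each gene. The deposited table also holds normalised values, a score made by the authors as count over size factor rounded to whole numbers, which served only to check the size factors, and the authors' fold changes and p-values, which were not used.

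Groups came from the sample titles. DESeq2 1.42.0 (R 4.3.3) was run as in the study on all genes with a count: median-of-ratios size factors, two-sided Wald test, independent filtering, Cook's filter and Benjamini-Hochberg adjustment over 15283 genes, with calls at an adjusted p under 0.05. edgeR 4.0.16 (quasi-likelihood, TMM) and limma 3.58.1 (voom) were alternatives, beside other size factors and filters, thinning to 883144 counts, a replicate block and leaving out each library. RPKM was computed from raw counts, union exon length and library totals. Reads were not collapsed by molecular identifiers here, so floors of 3 reads cover counting error only. No 2 replicates agreed within sampling noise (chi-square per degree of freedom of at least 9.68).

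Exon lengths and overlaps came from the GENCODE annotation of GRCm38, in which 99.82% of gene identifiers were found. For symbols with 2 table entries, Aldoa and Itgam, the one with more reads was used, and Castor1 was not matched. The 10 genes and all lists were chosen with earlier results of these data known. Named are the 10 genes, Adam12, the called genes of each other list (at most the 4 largest absolute log2 fold changes a direction, with the marker lists given by counts and sums), and the 3 genes most correlated with each of the 10 that had a mean of at least 100 normalised counts. Vwf, Kdr, Mc1r, Car4 and the uncalled genes Arnt, Vhl, Egln2 and Hif1an were named outside this rule after their values were seen.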

Additional observations from a re-analysis of the deposited data

Results flagged for a closer look

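In 20 groups of 4 libraries (10 genes in GFP- and in GFP+), Dixon's test at the 95% level marked 2 libraries, and chance marks about 1 in 20 groups. Bnip3 stood at 647 normalised counts in GFP+ replicate 1, with a gap of 0.967 of the whole range to its nearest neighbour. Egln1 stood at 992 normalised counts in GFP- replicate 2, with a gap of 0.88 of the range.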

How the results depend on the processing

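Epas1 kept its direction and its call in all 21 alternative settings, and Adm kept both in 19 of them. Without 1 library, the counts of the 10 genes called ranged from 1 to 2 higher and from 0 to 2 lower. Over the same fits log2 fold changes ranged from -0.11 to 0.056 for Hif1a, -0.64 to -0.44 for Egln1, -2.53 to -0.89 for Egln3, -3.32 to -2.09 for Car9, -0.69 to 0.093 for Bnip3, 0.81 to 1.26 for Adm, -2.0 to -0.42 for Ankrd37 and -1.73 to -1.02 for Ddit4, so Hif1a and Bnip3 changed sign in some. With all libraries thinned to the shallowest, Bnip3 was at 0.00059, Car9 at -1.45 and Egln3 at -1.19 (adjusted p = 0.9997, 0.683 and 0.694).

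Genes called over the whole table fell from 1439 to 938 with limma voom, to 806 after thinning and to 732 in edgeR with a filter on low counts, where calls over the other lists fell from 37 to 21. With size factors from genes of at least 100 mean reads, 1 of the 10 genes was called lower, Egln1 at -0.56. The edgeR filter, the edgeR block and the fits without both libraries numbered 1 were chosen after seeing the data. Those last fits called 3 of the 10 genes lower in DESeq2 and 3 in edgeR, at -2.06 and -2.06 for Egln3, -2.54 and -2.51 for Car9, and -0.91 and -0.87 for Bnip3. Both methods used the same remaining libraries, and the omitted GFP- replicate 1 was the lowest GFP- library for these 3 genes. The calls are therefore a description and no independent support. Apart from the omitted libraries, the cause of these shifts was not tested.

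Whether same-numbered libraries share an animal or a day is not given in the labels, and the numbers were not taken as pairs: deviations of same-numbered libraries correlated at 0.05, -0.16, -0.12 and 0.26 for numbers 1 to 4, and GFP- libraries numbered 1 to 3 matched another number best. Under a replicate block, DESeq2 called 1492 genes and 2 of the 10 lower, Egln1 at -0.54 and Car9 at -2.73 (adjusted p = 0.0381 and 0.0445), whereas edgeR with the block called neither (0.213 and 0.284). Depth limited Car9, Ankrd37, Egln3 and Ddit4, each at 9 reads or fewer in GFP- replicate 3.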
